A study of Mus musculus with 8 samples.

Results

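The genes of cholesterol and fatty acid synthesis were examined in RNA-seq counts from 8 mouse prostate tumors. The 31 members were chosen by gene symbol, as enzymes of both pathways and the regulators that control them. All 31 were found among the 38115 genes listed, and all 31 passed the filter on low counts. Tumors were grown from Myc-CaP, a mouse prostate cancer cell line that carries a prostate-expressed Myc transgene. Cells of an androgen sensitive (AS) or a castrate resistant (CR) Myc-CaP line were placed in the anterior prostate of FVB males that were intact or castrated beforehand. The data comprised 2 primary AS, 2 metastatic AS, 2 primary CR and 2 metastatic CR tumors, named AS1, AS2, CR1 and CR2 within each tumor type. Age, the host of each single tumor, the organ of each metastasis and the primary tumor it matches are not given in the labels. A metastasis and a primary tumor may come from 1 mouse, so p-values measure the spread between these tumors and not between animals.

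Cells build cholesterol from acetyl-CoA through the mevalonate pathway, which leads to squalene, and through a chain of enzymes that turn squalene into lanosterol and then cholesterol. Fatty acids are built from the same acetyl-CoA by Acly, Acaca and Fasn, and are then elongated and desaturated. The SREBP transcription factors, encoded by Srebf1 and Srebf2, switch on both sets of genes when sterols are low, with Scap as their escort and Insig1 and Insig2 as the proteins that hold them back. In prostate cells androgens are known to raise this program, and prostate tumors are known for active fatty acid synthesis.

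The main difference followed phenotype. Compared with AS tumors, CR tumors had lower transcript levels of 5 sterol synthesis enzymes, Acat2, Hmgcs1, Mvk, Tm7sf2 and Ebp, and a higher level of 1, Sc5d. These were 19.4% of the members, against 12.2% of all genes tested, at an adjusted p under 0.05. This count depended on single tumors. Without primary CR1, 12 members passed the test between phenotypes, but only 0 or 1 passed without any other single tumor. All genes that passed also moved, from 481 to 4133 with 1 tumor left out, against 2081 in the main fit. The means of Acat2, Mvk and Tm7sf2 in CR tumors were 45.8%, 47.6% and 45.4% of the AS means. No fatty acid enzyme and no SREBP regulator passed this test between phenotypes at the threshold of 0.05, although Scd1 and Scd2 passed it under several alternatives given below. No member passed the test between metastatic and primary tumors.

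The sequences upstream of 3 of these genes, which did not all move between phenotypes in the same direction, are shown. Each run holds the 250 bases before the transcription start in RefSeq, on build GRCm38, read 5′ to 3′ on the strand of the gene. Capitals mark matches on either strand to TCACNCCAC (the sterol regulatory element that SREBPs bind), CCAAT (the NF-Y box), GGGCGG (the GC box) or CACGTG (the E-box). None of these motifs contains another, and no 2 matches overlapped in the runs shown.
Hmgcs1, chr13:119690101-119690350, plus strand: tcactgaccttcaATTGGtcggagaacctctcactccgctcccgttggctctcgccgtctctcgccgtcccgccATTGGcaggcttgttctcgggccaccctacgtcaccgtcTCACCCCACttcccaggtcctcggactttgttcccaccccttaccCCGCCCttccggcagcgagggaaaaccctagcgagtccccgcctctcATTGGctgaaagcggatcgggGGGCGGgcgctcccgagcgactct
Ebp, chrX:8193513-8193762, minus strand: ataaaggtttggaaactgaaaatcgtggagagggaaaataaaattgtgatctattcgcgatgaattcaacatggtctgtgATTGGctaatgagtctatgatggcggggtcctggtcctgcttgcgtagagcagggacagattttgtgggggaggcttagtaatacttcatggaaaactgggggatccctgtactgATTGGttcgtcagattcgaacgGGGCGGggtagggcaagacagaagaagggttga
Sc5d, chr9:42264301-42264550, minus strand: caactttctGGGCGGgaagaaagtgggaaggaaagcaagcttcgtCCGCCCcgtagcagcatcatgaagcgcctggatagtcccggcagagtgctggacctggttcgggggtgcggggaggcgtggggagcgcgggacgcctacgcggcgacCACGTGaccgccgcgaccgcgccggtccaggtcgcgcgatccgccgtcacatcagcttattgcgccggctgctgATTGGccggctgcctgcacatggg
Hmgcs1 and Ebp were lower and Sc5d was higher in CR tumors. The Hmgcs1 run held 1 sterol regulatory element, 3 CCAAT boxes and 2 GC boxes. The Ebp run held 2 CCAAT boxes and 1 GC box, and the Sc5d run held 1 CCAAT box, 2 GC boxes and 1 E-box. The runs of Acat2, Mvk and Tm7sf2, not shown, overlapped annotated exons by 22, 42 and 250 bases and held no sterol regulatory element. Of the 31 members, 24 had an entry in the promoter table. These 24 had 32 windows, since a gene may have several starts. The sterol regulatory element was matched in 1 of the 32 (3.12%), that of Hmgcs1, and in 1.05% of all 32851 windows of this length. The CCAAT box was matched in 19 of the 32 (59.4%), against 33.8% of all windows. The GC box was matched in 23 (71.9%), against 32.7%, and the E-box in 5 (15.6%), against 6.02%. These matches are descriptions of letters and not of binding.

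Total counts ranged from 61237285 to 91886163 in AS tumors and from 20905806 to 76887592 in CR tumors, so depth moved with phenotype. Every member had at least 20 reads in every tumor. The identifiers in the sample titles fall in 2 runs of numbers that coincide with phenotype. What they mark is not given, so cell line, phenotype and whatever these runs stand for cannot be told apart. The mouse Myc gene lay between 237 and 253 normalized counts in AS tumors and between 309 and 414 in CR tumors. It did not pass the test between phenotypes (log2 fold change 0.63, adjusted p = 0.0604). Whether these counts hold reads of the Myc transgene is not known. Of the epithelial markers Krt8 lay between 2159 and 42146 and passed the test as higher in CR (log2 fold change 1.85, adjusted p = 0.0442), whereas Epcam, Cdh1, Krt18 and Pbsn did not exceed 35.96 in any tumor. The summed level of 6 hepatocyte markers moved with phenotype, from 220340 to 598420 in AS and from 5634 to 117180 in CR, with 2 of the 4 tested lower in CR, Fgb and Ttr. Most of that sum was Fgb in every tumor (5209 to 596880), while Alb, the defining marker, lay between 0 and 189. The summed level of 5 erythroid markers (Hba-a1, Hba-a2, Hbb-bs, Hbb-bt and Alas2) was 31464 in primary AS2 and 34995 in metastatic AS2 and at most 12343 in the other tumors, and Acta1 of the muscle list ranged from 22.4 to 831. No gene of the adipocyte, fibroblast, macrophage, lymphocyte, endothelial, erythroid or muscle lists passed the test between phenotypes. The defining adipocyte markers Adipoq and Plin1 did not exceed 10.2, while Fabp4 lay between 1671 and 5824, Plin4 between 9.93 and 215, and the summed level of the 8 adipocyte markers between 1827 and 6006. The summed level of the 4 lung markers, none of which passed the count filter, did not exceed 27.3. The part of other cells and of depth in the results below was not tested. In such bulk samples, fewer cells of a type and less RNA per cell cannot be told apart.

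The members spanned a wide range of levels. Levels were divided by kilobases of all annotated exons of a gene, which can be longer than the transcript expressed. Scd2 was then the highest, with a mean normalized count of 5990 per kilobase (2449 in the lowest tumor). It was followed by Fasn at 1077 and Acly at 1014. Of the 8 fatty acid members, 6 held the first 6 places, with Fads2 at 800.0, Fads1 at 689.8 and Scd1 at 579.8. The neighbours in this order from Fasn downward overlapped in their ranges over tumors. Insig2, at 542.5, was the highest regulator, and Pmvk, at 499.9, the highest mevalonate enzyme. At the other end stood Hsd17b7 at 32.7, Fdps at 36.1, Tm7sf2 at 43.2 and Dhcr7 at 48.4. Annotated exons covered 4403 bases in Tm7sf2, 4208 in Fdps and 5817 in Dhcr7. Their longest coding transcripts held only 1398, 1282 and 2715 stretches of read length, so these low places are uncertain. For Scd2 the values were 5464 and 5355. In raw counts Scd2 alone made up between 19.4% and 48.4% of all reads on the members. Per the study's methods, reads were kept only where they matched a single place in the genome. The submitters' notes name another aligner, so this is not settled for the deposited counts. Of the read-length stretches of the Fdps transcript, 90.7% also matched other annotated genes, mostly pseudogenes. The same share was 60.8% for Acaca, 51.2% for Acat2, 36.5% for Fdft1, 27.6% for Idi1 and 11.0% for Hmgcs1, so the levels of these members are uncertain. It was 7.87% for Scap, 5.52% for Scd1, 5.25% for Elovl6, 4.97% for Scd2 and 3.43% for Insig1, and at most 1.72% for the others. Genes annotated at a member's own place were not excluded from these matches, so the share of reads lost is not known.

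**Figure D1:**
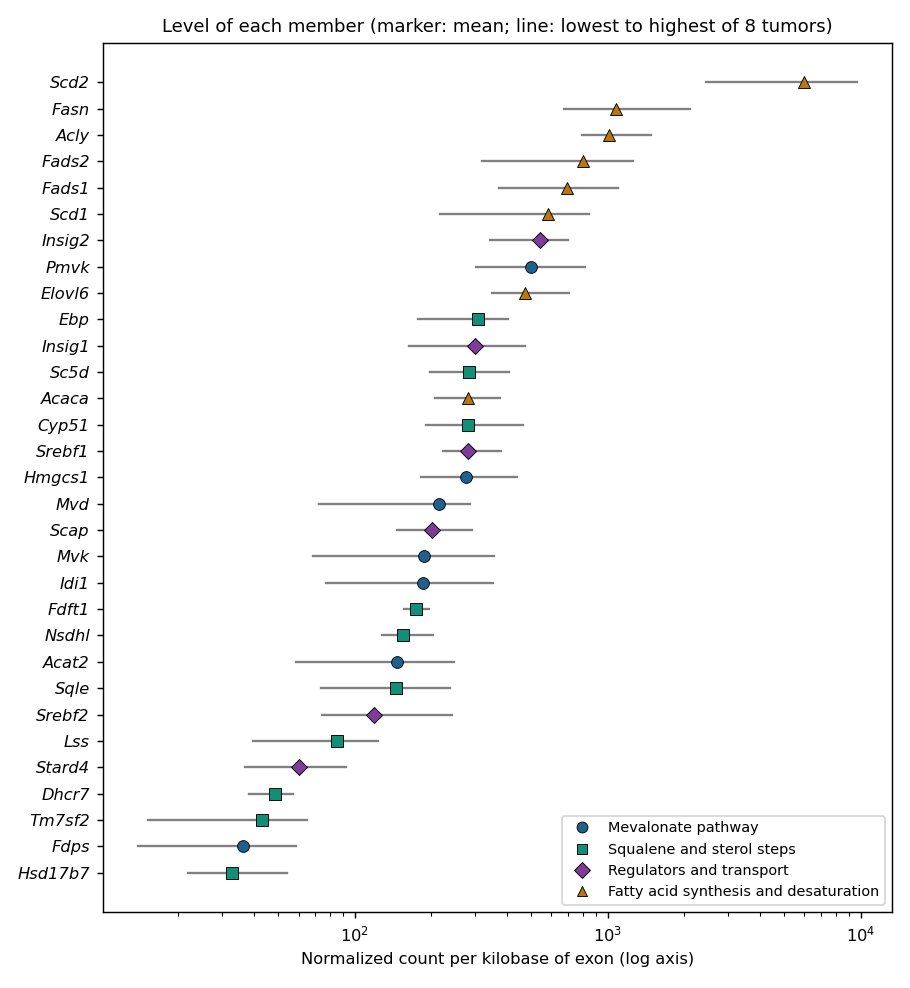
Normalized count per kilobase of exon (log axis) of the 31 members, ordered by level, with the mean over 8 tumors as the marker and a line from the lowest to the highest tumor. Scd2 stands at 5990, well to the right of Fasn at 1077, and Hsd17b7 is the lowest at 32.7.

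On GRCm38 the 6 members that passed the test between phenotypes are protein-coding genes on 6 chromosomes. They are Acat2 (chr17:12942890-12960747, minus strand), Hmgcs1 (chr13:119690379-119708260, plus strand), Mvk (chr5:114444269-114460591, plus strand), Tm7sf2 (chr19:6062821-6068373, minus strand), Ebp (chrX:8185329-8193512, minus strand) and Sc5d (chr9:42251595-42264256, minus strand).

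The first comparison asked which members differ between castrate resistant and androgen sensitive tumors. With tumor type as a covariate, 6 of 31 members passed the test (19.4%), 5 lower and 1 higher in CR. The background over all 17104 genes tested was 12.2%, with 6.01% lower and 6.16% higher. At an unadjusted p under 0.05 there were 11 members, 10 of them lower, against 28.8% of all genes. By sign alone, 25 members had a lower and 6 a higher fitted level in CR, where 50.8% of all genes were lower. The median log2 fold change over the members was -0.21 against -0.01 over all genes, and it ranged from -0.451 to -0.0842 (without primary CR2) with 1 tumor left out.

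The mevalonate pathway held 3 of the 6, and all 7 of its enzymes had a negative log2 fold change, with a median of -0.67. Acat2, the thiolase that joins acetyl-CoA units at the first step, had normalized counts of 628 and 504 in primary AS, 526 and 401 in metastatic AS, 306 and 241 in primary CR, and 246 and 149 in metastatic CR tumors. Every CR tumor lay below every AS tumor, and the means were 515 ± 93.4 and 236 ± 64.9 (SD, n = 4 each). The log2 fold change of Acat2 was -1.13 (SE 0.23), with an adjusted p of 0.0193. Hmgcs1, the synthase of the next step, whose upstream run is given above, counted 1412 and 1228 in primary AS, 1599 and 2023 in metastatic AS, 1123 and 838 in primary CR, and 892 and 1031 in metastatic CR tumors. The groups did not overlap, but primary CR1 was close to primary AS2. Its log2 fold change was -0.67 (SE 0.18), with an adjusted p of 0.0451. Mvk, the kinase that phosphorylates mevalonate, counted 953 and 603 in primary AS, 481 and 684 in metastatic AS, 575 and 299.8 in primary CR, and 236 and 184 in metastatic CR tumors. Here the groups overlapped, since primary CR1 lay above metastatic AS1. For Mvk the log2 fold change was -1.14 (SE 0.29), with an adjusted p of 0.0372.

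The other 4 mevalonate enzymes did not pass the test. Their log2 fold changes ran from -0.70 for Mvd, the decarboxylase, through -0.44 for Fdps, the farnesyl diphosphate synthase, and -0.21 for Idi1, the isomerase, to -0.13 for Pmvk, the second kinase. In each of these the AS and CR tumors overlapped, and primary CR1 was the highest of the 8 tumors for Fdps, Mvd and Pmvk.

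The 10 genes of the squalene and sterol steps went both ways, with a median log2 fold change of -0.06. Tm7sf2, a sterol reductase, counted 286 and 257 in primary AS, 221 and 281 in metastatic AS, 176 and 138 in primary CR, and 93.7 and 67.1 in metastatic CR tumors. All CR tumors lay below all AS tumors, and the metastatic CR tumors lay lowest. The log2 fold change of Tm7sf2 was -1.20 (SE 0.27), with an adjusted p of 0.0274. Ebp, the sterol isomerase, counted 930.3 and 892 in primary AS, 839 and 798 in metastatic AS, 735 and 641 in primary CR, and 430.3 and 412 in metastatic CR tumors. The metastatic CR tumors again lay lowest, and the phenotypes did not overlap. For Ebp the log2 fold change was -0.68 (SE 0.17), with an adjusted p of 0.0361.

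Sc5d, the desaturase that acts after Ebp, was the only member to pass as higher in CR. It counted 965 and 1083 in primary AS, 1250.5 and 1273 in metastatic AS, 1414 and 1437 in primary CR, and 1643 and 1989 in metastatic CR tumors. The groups did not overlap, and the mean was 1143 ± 146 in AS and 1621 ± 266 in CR tumors (SD, n = 4 each). The log2 fold change of Sc5d was 0.50 (SE 0.13), with an adjusted p of 0.0430. Ebp and Sc5d stand next to each other in the pathway and differed in opposite directions.

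**Figure D2:**
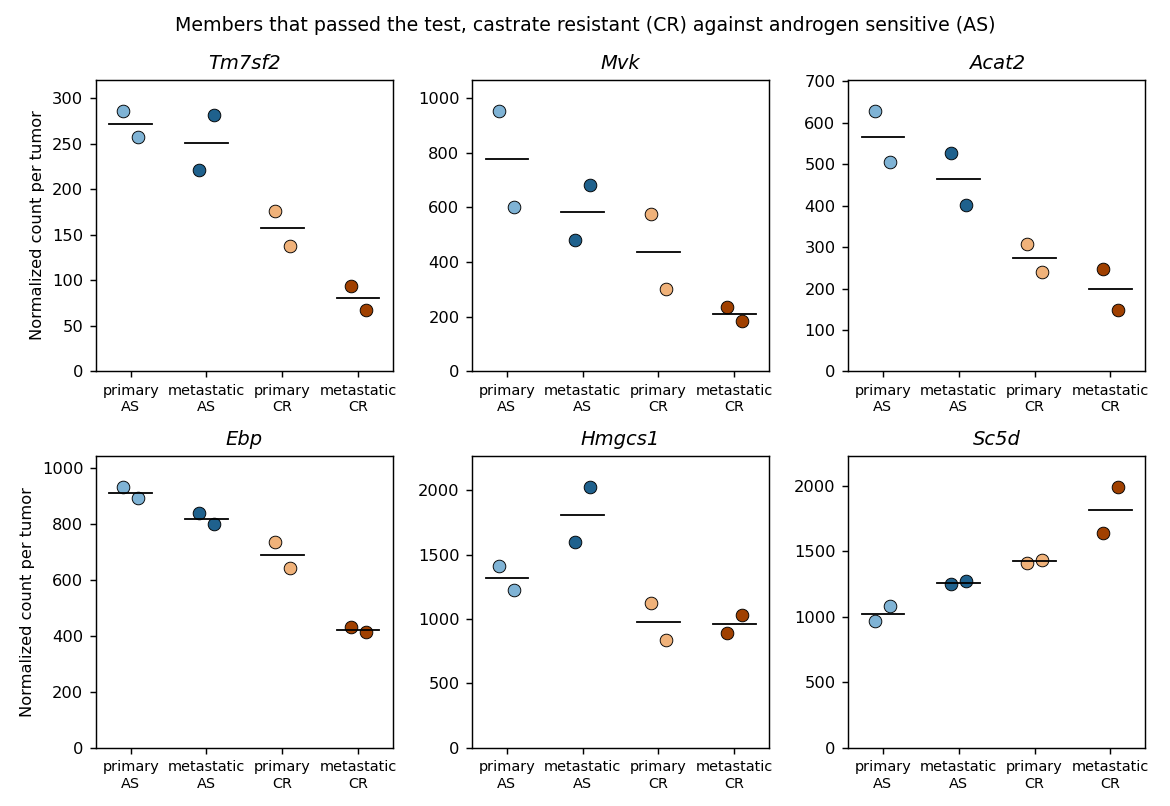
Normalized count in each tumor of the 6 members that passed the test between phenotypes, 2 tumors per group, with a bar at the group mean and axes that start at 0. CR tumors lie below AS tumors in Acat2, Hmgcs1, Tm7sf2 and Ebp, overlap them in Mvk, and lie above them in Sc5d.

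Of the other 7 sterol genes, Lss, the lanosterol synthase (log2 fold change -0.73, adjusted p = 0.102), and Nsdhl, which removes methyl groups from sterols (-0.43, adjusted p = 0.123), had the next smallest p. Nsdhl was lower in all CR than in all AS tumors, and Fdft1, the squalene synthase, was higher in all CR than in all AS tumors with a log2 fold change of 0.19 (adjusted p = 0.406). Sqle, the squalene epoxidase, counted 723 and 436 in primary AS, 878 and 1222 in metastatic AS, 1318 and 679 in primary CR, and 786 and 409.8 in metastatic CR tumors. Its groups overlapped, and its log2 fold change was -0.01 (95% confidence interval -0.94 to 0.93), so a change of nearly 2-fold in either direction could not be told from none. Hsd17b7 at -0.11, Dhcr7 at 0.07 and Cyp51 at 0.08 had intervals that spanned 0. In all, the phenotypes did not overlap in 6 members that were lower and 2 that were higher in CR, against 9.82% and 9.09% of all genes tested.

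None of the 6 regulators and transport genes passed the test, and all 6 log2 fold changes were negative, with a median of -0.15. The smallest p was that of Insig2, which holds SREBP in the endoplasmic reticulum. Insig2 counted 1921 and 2429 in primary AS, 1965 and 2367 in metastatic AS, 1976 and 1717 in primary CR, and 1192 and 1505 in metastatic CR tumors, with a log2 fold change of -0.46 (SE 0.17) and an adjusted p of 0.112. Srebf2, the main SREBP of sterol genes, counted 1739 and 586 in primary AS, 899.5 and 945 in metastatic AS, 717 and 758 in primary CR, and 534 and 680.5 in metastatic CR tumors. Primary AS1 stood far above the other 7 tumors for Srebf2, and the log2 fold change was -0.63 (SE 0.30, adjusted p = 0.198). Srebf1, the main SREBP of fatty acid genes, counted 2142 and 1669.6 in primary AS, 1399 and 1382 in metastatic AS, 1804 and 1405 in primary CR, and 1258 and 1569.6 in metastatic CR tumors. Its groups overlapped, with a log2 fold change of -0.11 (95% confidence interval -0.48 to 0.26). An exact two-sided permutation test of the 8 tumors gave p = 0.543 for Srebf1 and p = 0.143 for Srebf2. Scap, Insig1 and Stard4, a cholesterol carrier, lay between -0.17 and -0.08. Srebf2 passed with no filter on low counts (adjusted p = 0.0406), and Insig2 without primary CR1 (adjusted p = 0.0450).

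None of the 8 fatty acid genes passed the test, with a median log2 fold change of -0.26. The desaturases Scd1 and Scd2, which put a double bond into saturated fatty acids and are near paralogs, had the lowest values. Scd2 counted 52671 and 46362 in primary AS, 34249 and 38597 in metastatic AS, 13384 and 35160 in primary CR, and 22627 and 18788 in metastatic CR tumors. Primary CR2 overlapped the AS tumors and the other 3 CR tumors lay below them. The log2 fold change of Scd2 was -0.92 (SE 0.28), with an adjusted p of 0.0645 and an exact permutation p of 0.0571. Scd1 counted 3371 and 4139 in primary AS, 3621 and 3569.8 in metastatic AS, 1568.5 and 3007 in primary CR, and 2356 and 1060.5 in metastatic CR tumors. The phenotypes did not overlap in Scd1, and its log2 fold change was -0.89 (SE 0.28, adjusted p = 0.0732). Its exact permutation p was 0.0286, the smallest that 4 tumors against 4 can give, and 0.0556 when labels were permuted within tumor types, again the smallest possible. Both desaturases passed with no filter on low counts (adjusted p = 0.000438 for Scd2 and 0.000429 for Scd1), by DESeq2 (adjusted p = 0.0211 and 0.0335) and at a threshold of 0.1. Scd1 also passed by limma-voom (adjusted p = 0.0498), and Scd2 without primary CR1 (adjusted p = 0.0201) or primary CR2 (adjusted p = 0.0419). In all, 18 exact permutation tests were run on the 6 genes Srebf1, Srebf2, Fasn, Sqle, Scd1 and Scd2, without adjustment.

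Fasn, the fatty acid synthase itself, counted 23246 and 9162 in primary AS, 9602 and 7338 in metastatic AS, 12566 and 11661 in primary CR, and 12433 and 8325 in metastatic CR tumors. Primary AS1 was far above the rest and the other tumors overlapped. The log2 fold change of Fasn was -0.06 (95% confidence interval -0.76 to 0.63), and it was 0.325 without primary AS1. Acly, which makes cytosolic acetyl-CoA, and Elovl6, an elongase, had positive values of 0.13 and 0.33. Acaca, Fads1 and Fads2, the carboxylase and the polyunsaturated fatty acid desaturases, had values of -0.19, -0.33 and -0.40, and their intervals spanned 0.

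**Figure D3:**
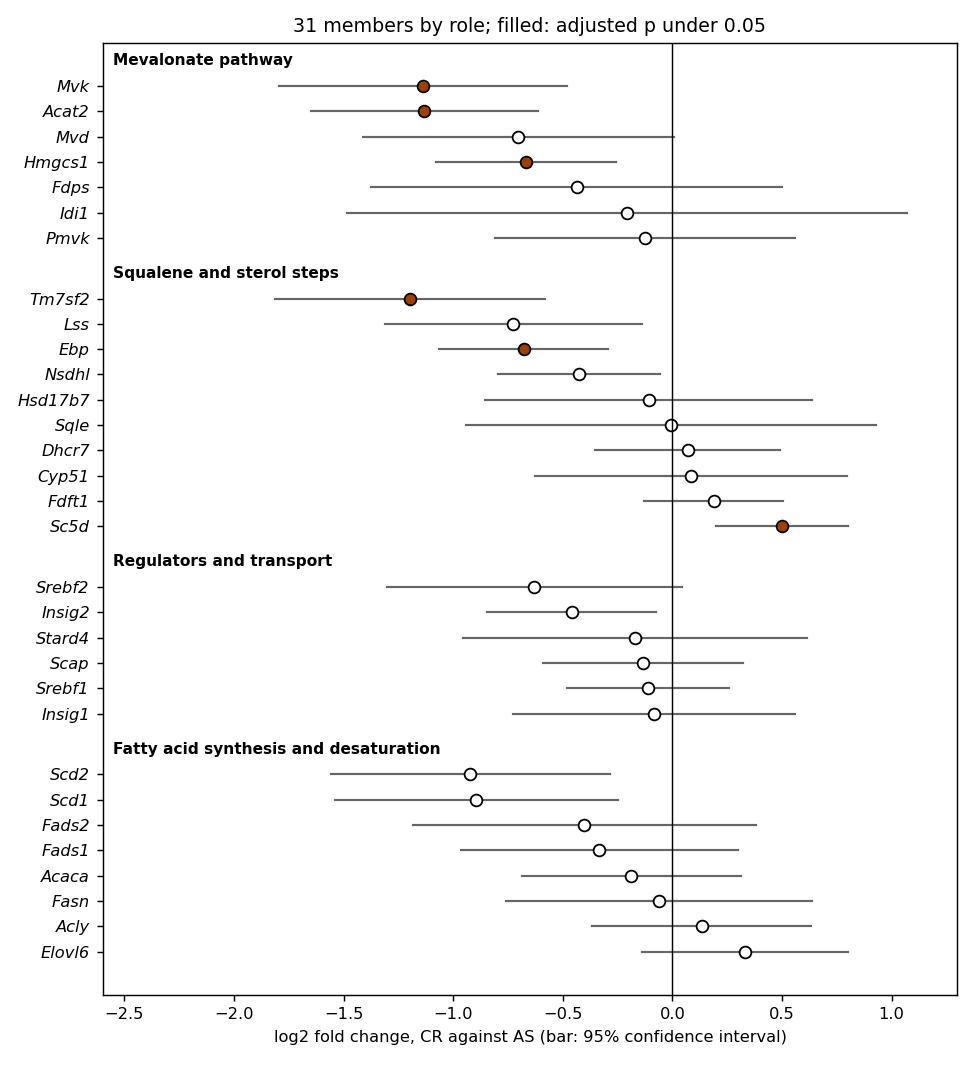
Log2 fold change of CR against AS tumors for the 31 members, in blocks by role, with tumor type as a covariate and bars for the 95% confidence interval. The 6 filled points passed the adjusted threshold, and 25 of the 31 points lie below 0.

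Which members passed the threshold depended on single tumors. Over 15 alternatives the log2 fold change ranged from -1.26 to -0.99 for Acat2 and from 0.402 to 0.556 for Sc5d. The range was -1.67 to -0.791 for Tm7sf2 and -1.5 to -0.826 for Mvk. It was -0.996 to -0.416 for Ebp and -0.953 to -0.437 for Hmgcs1. The threshold was lost in 11 alternatives for Mvk and Sc5d, 10 for Ebp and Hmgcs1, 9 for Tm7sf2 and 6 for Acat2. With 1 tumor left out, the members called ranged from 0 to 12. There were 0 without primary AS1, metastatic AS1 or metastatic AS2, and 1 without primary AS2, metastatic CR1 or metastatic CR2, which was Acat2 each time, or without primary CR2, which was Scd2. Without primary CR1 there were 12, the 6 named above with Fdps, Idi1, Insig2, Lss, Mvd and Scd2. All genes called also moved with 1 tumor left out, below and above the 2081 of the main fit, to at most 4133.

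The same difference was then taken within each tumor type, 2 tumors against 2, in a fit of the 4 groups. No member passed the test in either type by edgeR's quasi-likelihood test, where 0.296% of all genes passed in primary and 0.36% in metastatic tumors. At an unadjusted p under 0.05 there were 3 members in primary tumors, against 14.2% of all genes, and 11 in metastatic tumors, against 19.9%. The median log2 fold change of the members was -0.28 in primary and -0.64 in metastatic tumors. The smallest adjusted p was 0.245 in primary tumors, for Acat2, and 0.0785 in metastatic tumors, for Tm7sf2. All 7 mevalonate enzymes were lower in metastatic CR than in metastatic AS tumors by sign, with a median of -1.17, whereas 5 of the 7 were lower in primary CR tumors, with a median of -0.28. Acat2 had log2 fold changes of -1.05 in primary and -1.26 in metastatic tumors, and Sc5d 0.46 and 0.49. Tm7sf2 had -0.79 and -1.67, Mvk -0.83 and -1.50, Ebp -0.42 and -0.996, and Hmgcs1 -0.44 and -0.95, so each was lower in both types. Of all 31 members, 16 (51.6%) were lower in CR in both types, against 35.1% of all genes. There were 8 members (25.8%), namely Acly, Cyp51, Hsd17b7, Idi1, Insig1, Pmvk, Sqle and Stard4, that were higher in primary CR and lower in metastatic CR tumors by sign, against 15.6% of all genes.

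**Figure D4:**
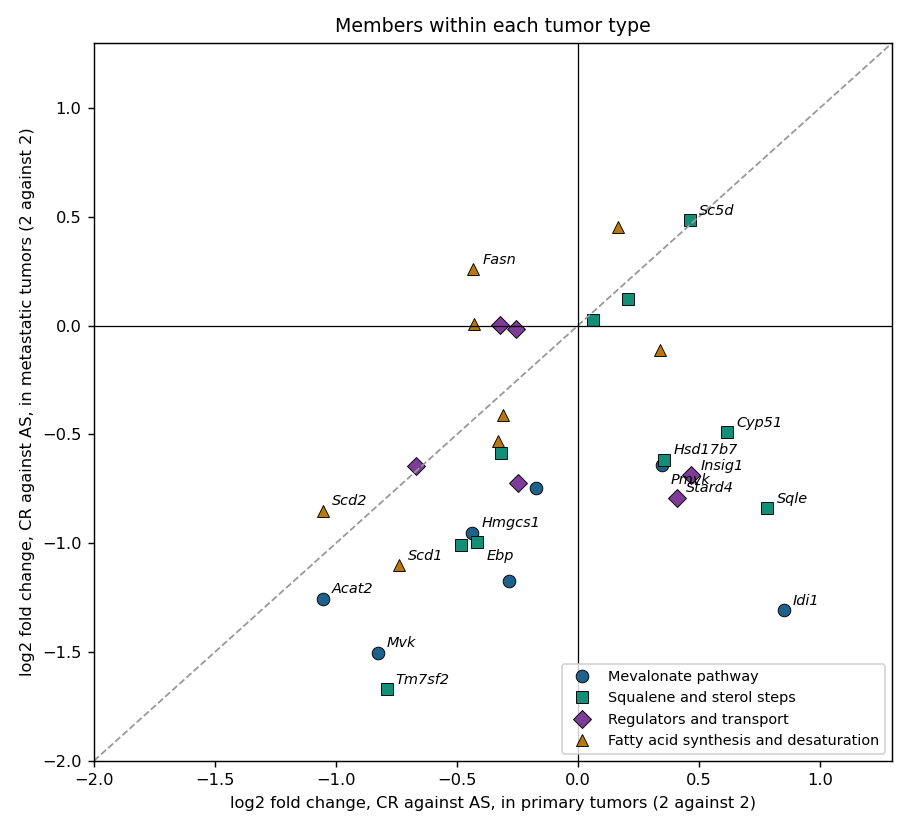
Log2 fold change of CR against AS in primary tumors (horizontal axis) and in metastatic tumors (vertical axis) for the 31 members, with a marker for each role and a dashed line where both are equal. Sc5d lies on the line at 0.46 and 0.49, and Idi1 and Sqle lie in the lower right, higher in primary CR and lower in metastatic CR tumors.

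Whether the phenotype difference itself differed between tumor types was tested as an interaction. No member passed (adjusted p = 0.964 at the lowest), and 0% of the 18889 genes tested did. The count was also 0 by DESeq2 and by limma-voom. At an unadjusted p under 0.05 there were 3 members, Idi1, Sqle and Insig1, against 2.74% of all genes, and they are named here because they were that few. The interaction was -2.16 (SE 0.85) for Idi1, -1.62 (SE 0.64) for Sqle and -1.16 (SE 0.46) for Insig1. Idi1 counted 512 and 289 in primary AS, 889.8 and 1232 in metastatic AS, 1160.2 and 270.4 in primary CR, and 465 and 412 in metastatic CR tumors. The high value of primary CR in Idi1 was that of CR1 alone, since CR2 was the lowest of the 8 tumors. Insig1 counted 875 and 826 in primary AS, 1086 and 937 in metastatic AS, 1461 and 902 in primary CR, and 777 and 507 in metastatic CR tumors. Over the members, the median interaction was -0.45 against -0.05 over all genes, and it ranged from -0.714 to -0.21 over 12 alternatives.

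Metastatic and primary tumors were then compared, which was the study's own question. No member passed the test (adjusted p = 0.997 at the lowest), and neither did any other gene, 0% of 17104. No member had an unadjusted p under 0.05, against 2.68% of all genes, and DESeq2 and limma-voom called none. The members' median log2 fold change was -0.20 against -0.03 over all genes. By sign 19 members were lower and 12 higher in metastases, where 53.8% of all genes were lower. The smallest p of each role belonged to Mvk at -0.61, Sc5d at 0.33, Srebf1 at -0.32 and Fasn at -0.59. The 95% confidence interval was -1.66 to 0.43 for Mvk and -0.16 to 0.82 for Sc5d. It was -0.72 to 0.07 for Srebf1 and -1.28 to 0.10 for Fasn. The mean of Fasn was 14159 ± 6227 in primary and 9424 ± 2209 in metastatic tumors (SD, n = 4 each), and its exact permutation p was 0.171. For Srebf1 the means were 1755 ± 306 and 1402 ± 128, with an exact permutation p of 0.0571. The tumor types did not overlap in 1 member, Dhcr7, the last reductase of the pathway, which was higher in metastases (258 ± 24.4 and 305 ± 21.8), against 1.7% of all genes. Dhcr7 was named after its values were seen. Within AS tumors and within CR tumors alike, both metastases lay on the same side of both primary tumors in 4 of 31 members (12.9%), against 8.38% of all genes. These were Sc5d and Dhcr7, higher in metastases, and Ebp and Mvd, lower. With phenotype as a covariate the log2 fold change was 0.325 for Sc5d and -0.427 for Ebp, and neither passed (adjusted p = 0.726 for both).

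The members by sign differed more between tumor types among CR tumors. Of the 31, 26 were lower in metastatic than in primary CR tumors, with a median log2 fold change of -0.43, where 52.2% of all genes were lower. Among AS tumors 18 were lower, with a median of -0.04, where 51.5% of all genes were lower. Mvk had values of -1.10 in CR and -0.42 in AS, and Tm7sf2 -0.996 and -0.12. Fasn had -0.25 in CR and -0.94 in AS tumors. The test of this difference is the interaction given above, which no member passed.

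The tumors differed as wholes. Metastatic CR2 had the lowest value of the 8 tumors in 14 members (45.2%), against 20.3% of all genes. These were Acat2, Mvk, Mvd and Pmvk of the mevalonate pathway, Sqle, Lss, Tm7sf2 and Ebp of the sterol steps, Scap and Insig1 of the regulators, and Acly, Scd1, Fads1 and Fads2 of the fatty acid genes. Primary AS1 had the highest value in 11 members (35.5%), against 17.2% of all genes, among them Fasn, Scd2, Srebf1 and Srebf2. Primary CR1 was highest for 7 members (22.6%), against 17.5%, among them Sqle, Cyp51 and Insig1, and it was lowest for Scd2. Metastatic CR2 was the library with the lowest total count and primary CR1 that with the highest among CR tumors. The mean log2(CPM + 1) over the mevalonate enzymes was 3.54, 3.24, 3.47 and 3.65 in primary AS1, primary AS2, metastatic AS1 and metastatic AS2. It was 3.57, 2.65, 2.81 and 2.48 in primary CR1, primary CR2, metastatic CR1 and metastatic CR2, so primary CR1 alone among CR tumors lay within the range of AS tumors. Over the fatty acid genes it was 6.91, 6.597, 6.55 and 6.44 in the AS tumors and 6.19, 6.57, 6.57 and 5.83 in the CR tumors, in the same order.

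**Figure D5:**
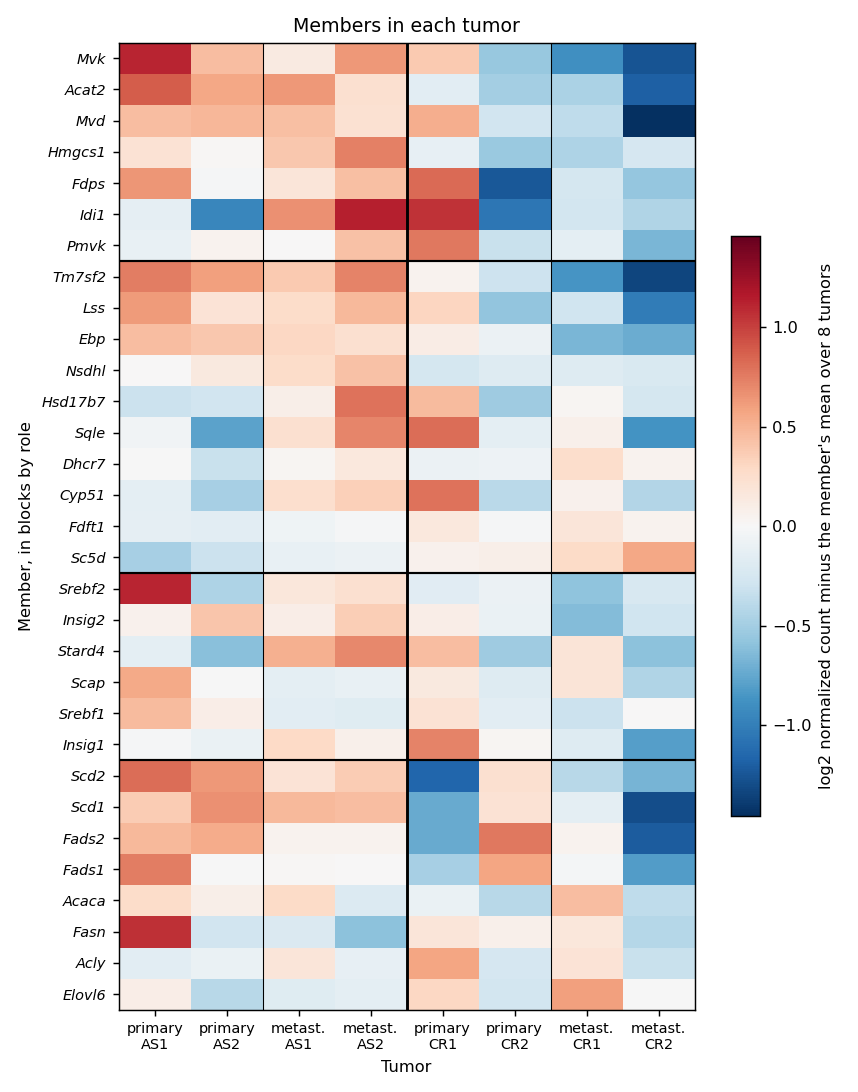
Log2 normalized count of each member in each of the 8 tumors, minus its mean over the tumors, with AS tumors left and CR tumors right of the thick line and members in blocks by role. Red marks values above and blue values below the mean, and metastatic CR2 is the lowest tumor for 14 members.

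Other genes of the same pathways were counted from lists of 54 genes, of which 53 were found. Their counts are read against the 6.01% of all genes that were lower and the 6.16% that were higher in CR, so 1 gene in a list of 5 or 10 is close to what all genes give. Of 10 tested genes of sterol efflux and LXR control, 1 was lower, Nr1h2, a sterol-sensing nuclear receptor, at -0.70 (adjusted p = 0.0304). Of 5 tested genes of SREBP processing, 1 was higher, Mbtps2, a protease that releases SREBP from the membrane, at 0.67 (adjusted p = 0.0289). Mbtps2 was higher in CR tumors, while 3 mevalonate enzymes were lower.

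Of 16 other fatty acid and glycerolipid genes, 4 were lower and 1 was higher in CR. Dgat1, which makes the last step of triglyceride synthesis, had the largest difference, with counts of 953 and 821 in primary AS, 553 and 740 in metastatic AS, 433 and 294 in primary CR, and 189 and 142 in metastatic CR tumors. No CR tumor reached an AS tumor, and the log2 fold change of Dgat1 was -1.61 (SE 0.24, adjusted p = 0.00758). Mid1ip1, an activator of acetyl-CoA carboxylase, stood at -0.98, Scd3, a further desaturase, at -0.92, and Gpam, which starts glycerolipid synthesis, at -0.86. The higher one was Pparg, the nuclear receptor of fat storage, at 1.03 (adjusted p = 0.0477), with counts between 39.8 and 52.9 in AS and between 76.2 and 130 in CR tumors. Of 10 tested genes of fatty acid oxidation, 8 were lower and 2 higher in CR by sign, where 50.8% of all genes were lower. There 2 passed as lower, among them the enzyme Acadvl at -0.75 (adjusted p = 0.0366). No gene of the 5 lists passed the test between metastatic and primary tumors.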

How the data were processed

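RNA was isolated with TRIzol from 8 tumors (all 4 labelled primary and all 4 labelled metastatic were used), depleted of ribosomal RNA and sequenced as paired reads of 101 bases. Per the study's methods the authors mapped reads to mm10 with Bowtie and kept those with a single location and up to 2 mismatches. The submitters' processing notes name CASAVA 1.8.2 and TopHat2 2.0. The deposited values were raw counts per gene. The counting tool and annotation release are not given in the sources used here.

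Counts were analysed with edgeR 4.0.16 in R 4.3.3, with filterByExpr, TMM factors (0.811 to 1.15) and the quasi-likelihood test, adjusted by the Benjamini-Hochberg method over all genes tested, with a threshold of 0.05. Metastatic against primary was the only term of its fit, phenotype was fitted with tumor type as a covariate, and the interaction and the differences within groups came from a fit of the 4 groups. Normalized counts are counts divided by effective library size and scaled to the mean over tumors. Exact permutation tests used log2(normalized count + 1). No 2 libraries were identical. The members and lists were chosen with earlier results of these data known.

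Tumor values were given for members past the threshold, for the member with the smallest p of each role in both comparisons, and for Srebf1, Srebf2, Fasn, Sqle, Scd1 and Scd2. Other pathway genes were named where they passed, except for items that are not reported here. DESeq2 1.42.0, limma-voom (limma 3.58.1), other size factors, no count filter, other covariates, single tumor types or phenotypes, a threshold of 0.1 and each tumor left out were alternatives, and possible pairings as a block were added after the data were seen. Scripts were tested on simulated data. Gene positions, exon lengths and shared sequence came from GENCODE, and upstream sequences from RefSeq, both on GRCm38. Figures were drawn with matplotlib 3.10.9.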

Additional observations from a re-analysis of the deposited data

Results flagged for a closer look

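Among the 31 members, 10 of 124 groups of 4 tumors held 1 tumor far from the other 3 by Dixon's test. Chance gives this in about 5% of independent groups of like tumors. The groups here share tumors and mix phenotypes or tumor types, so that rate is only a rough guide. Primary AS1 stood above the other AS tumors for Fasn, at 23246 against 7338 to 9602, for Fads1, at 5290.5 against 3145.5 to 3176, and for Scap, at 2176 against 1339 to 1478. It stood above the other primary tumors for Srebf2, at 1739 against 586 to 758. Primary CR1 stood above the other primary tumors for Insig1, at 1461 against 826 to 902, and for Acly, at 7811 against 4424 to 4889. Primary CR2 stood below the other primary tumors for Mvd, at 303 against 502 to 531. Metastatic AS1 stood above the other AS tumors for Acly, at 5914 against 4735 to 4889. Metastatic CR2 stood below the other metastatic tumors for Fads1, at 1783 against 3079.6 to 3176, and for Fads2, at 1048 against 2509 to 2520.3.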

How the results depend on the processing

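No single pairing could be settled on, because the labels give no replicate numbers and do not say which primary tumor each metastasis matches. Primary tumors and metastases alternate in the order of the titles, and the pairing in that order was among those fitted. As an alternative chosen after seeing the data, each of the 4 possible pairings within phenotypes was fitted as a block, and 0 members and 0 genes were called between metastatic and primary tumors under each, with 1 or 2 members at an unadjusted p under 0.05 and a median log2 fold change of -0.214 or -0.212. The members called between phenotypes were 6 with DESeq2 size factors, 9 with no low-count filter (Sc5d lost, Lss, Scd1, Scd2 and Srebf2 gained), 8 by DESeq2 and at a threshold of 0.1 (Scd1 and Scd2 gained) and 5 by limma-voom (Hmgcs1 and Mvk lost, Scd1 gained). They were 3 with phenotype as the only term, and 0 in primary tumors only and in metastatic tumors only. With each tumor left out they ranged from 0 to 12, and all genes called from 481 to 4133. All genes called were 3544 by DESeq2, 56 in primary tumors only and 68 in metastatic tumors only, against 2081 in the main fit. The members' median log2 fold change moved to -0.64 in metastatic tumors only and ranged from -0.451 to -0.0842 with 1 tumor left out. For the interaction 1 member, Idi1, was called with no low-count filter. Between metastatic and primary tumors 0 members were called under every alternative tried.

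The sign of Sqle between phenotypes turned to 0.0145 with DESeq2 size factors, 0.0112 by DESeq2, 0.0522 by limma-voom and 0.784 in primary tumors only. With 1 tumor left out, Sqle ranged from -0.391 to 0.335, and turned without metastatic AS1, metastatic AS2, metastatic CR1, primary CR2 or metastatic CR2 (0.0135, 0.226, 0.0402, 0.0562 and 0.335). That of Fasn turned to 0.0021 by limma-voom and 0.258 in metastatic tumors only, and it ranged from -0.251 to 0.325 with 1 tumor left out, with 0.047 without primary CR2 and 0.325 without primary AS1. Between metastatic and primary tumors, Sqle turned to -0.772 in CR tumors only and ranged from -0.191 (without metastatic AS2) to 0.429, with -0.116 without primary AS2. Scd1 ranged from -0.403 to 0.0753 (without metastatic CR2), with 0.022 without primary AS2. Srebf2 ranged from -0.463 to 0.152 (without primary AS1), and Hmgcs1 turned to -0.0648 in CR tumors only. None of these values passed the test. The causes were not tested. In the interaction, leaving out a tumor left 1 in its group, which was assumed to vary like the other groups.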
